A study of Mus musculus with 6 samples.

Results

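The 9 genes described here mark the oligodendrocyte lineage of the newborn mouse cortex. They were taken as a given list of symbols (Olig1, Olig2, Sox10, Nkx2-2, Pdgfra, Cspg4, Gpr17, Mbp and Cnp), each matched to its Ensembl identifier in GENCODE M21, out of 52550 gene identifiers in the count tables. The list spans 4 transcription factors of the lineage, 2 surface proteins of precursor cells and 3 genes of cells that have begun to differentiate. Polyadenylated RNA was sequenced from 6 samples of cortex of C57BL6/J pups at postnatal day 2, each from a single hemisphere. The control group (n = 3) was Slc7a5fl/fl; Emx1Cre- and the knockout group (n = 3) was Slc7a5fl/fl; Emx1Cre+, so that floxed alleles were present in both groups and the Cre driver was present in the knockouts alone. Effects of Cre itself and of the deletion cannot be told apart. The design text calls the controls wild type and the 3 samples per genotype biological replicates. Libraries carry the letters A, B and C within each genotype, and values below are listed in that order. The comparison asks how transcript levels differ when Slc7a5, the light chain of the amino acid exchanger LAT1, is deleted in the Emx1 lineage.

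Oligodendrocytes arise from dividing precursor cells, which spread through the brain from several progenitor zones before they stop dividing, extend processes and wrap axons in myelin. In the mouse forebrain the early precursors come from ventral zones and later ones from the Emx1-expressing dorsal zone, so part of the lineage in the cortex lies outside the reach of Emx1-driven Cre. In the days after birth cortical cells of the lineage are mainly precursors and myelin has barely formed. Olig1, Olig2, Sox10 and Nkx2-2 specify the lineage and carry it forward, Pdgfra receives the growth factor that keeps precursors dividing, Gpr17 marks cells committed to differentiate, and Mbp and Cnp serve the myelin sheath.

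Total gene counts were 8249436 to 10077443 per library in controls and 9524407 to 10372582 in knockouts. Reads on no annotated exon of the counted strand were 22.5 to 26.5% of mapped reads in controls and 27.4 to 27.9% in knockouts. They include reads on the opposite strand of an exon. The part of this difference in the results below was not tested. CPM below is a gene's share of the counted reads, scaled by library size. The targeted gene Slc7a5 had 20.2, 40.7 and 26.1 CPM in the controls, against 15.6, 9.37 and 11.4 CPM in the knockouts, all of them below the controls. The means were 29.0 ± 10.5 CPM (SD, n = 3) in controls and 12.1 ± 3.20 CPM in knockouts (edgeR quasi-likelihood adjusted p = 0.3996). Whether Slc7a5 was called depended on the setting. It was called by DESeq2 (adjusted p = 0.0003418) and by edgeR when low-count genes were kept in (adjusted p = 5.017e-11). The paired edgeR fits without letter A, B or C also called it (adjusted p = 3.882e-16, 0.003942 and 3.736e-05). Those paired fits were chosen after the data were seen and rest on fewer libraries. Slc7a5 was not called in the paired edgeR fit of all letters (adjusted p = 0.421) or by DESeq2 with the block (adjusted p = 0.670). Nor was it called by edgeR with RLE scaling (adjusted p = 0.407) or with unstranded counts (adjusted p = 0.401). With any 1 library left out, edgeR did not call it either (adjusted p from 0.0687 to 0.679). All 9 members passed the filter on low counts and were tested. In edgeR's quasi-likelihood test, 0 of the 9 were called (Benjamini-Hochberg adjusted p under 0.05 over 14913 genes), beside 5 called genes in all, or 0.0335% of those tested. With the letter as a block, which pairs the libraries, again 0 of 9 were called, beside 126 of all genes or 0.845%, and DESeq2 called 0 as well, without an adjusted p for Nkx2-2. In the edgeR fit without the block, the members Gpr17 and Olig1 had an unadjusted p under 0.05, 2 of 9, beside 7.00% of all genes. The fitted value was lower in the knockout for 7 of the 9 members, and their median log2 change was -0.13, beside 0.0011 over all genes tested.

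For orientation, the sequence around the start site is shown for the precursor gene Pdgfra, whose values were lower in each knockout than in the control of the same letter, and for the differentiating gene Cnp, whose group means were nearly equal. Both are RefSeq sequences on GRCm38.p6, plus strand, 5′ to 3′, from 250 bases before to 50 bases after the start, at chr5:75152001-75152300 and chr11:100574689-100574988. Capitals mark every match, on either strand, to the E-box CANNTG, a motif of basic helix-loop-helix factors such as Olig1 and Olig2, and to the SOX cores ACAAAG and ACAATG, motifs of factors such as Sox10.
Pdgfra: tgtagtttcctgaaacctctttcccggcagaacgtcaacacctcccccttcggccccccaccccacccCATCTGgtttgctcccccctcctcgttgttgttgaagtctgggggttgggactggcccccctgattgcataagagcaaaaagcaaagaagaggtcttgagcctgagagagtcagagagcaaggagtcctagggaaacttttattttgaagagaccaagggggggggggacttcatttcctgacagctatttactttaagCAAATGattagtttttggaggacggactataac
Cnp: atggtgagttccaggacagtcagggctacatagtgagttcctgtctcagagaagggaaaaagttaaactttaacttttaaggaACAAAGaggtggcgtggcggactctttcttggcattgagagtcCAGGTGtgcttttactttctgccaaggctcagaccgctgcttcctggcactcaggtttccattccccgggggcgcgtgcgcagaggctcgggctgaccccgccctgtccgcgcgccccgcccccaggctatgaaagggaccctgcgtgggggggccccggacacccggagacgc
The Pdgfra window held 2 E-boxes and 0 SOX cores, and the Cnp window held 1 E-box and 1 ACAAAG. An E-box was present in 72.3% of all 32851 windows of this length in the table, ACAAAG in 18.7% and ACAATG in 12.6%, so these matches are common and none of them is shown to be a binding site. Windows were matched for 5 of the 9 members, the others being those of Olig2 (1 ACAATG), Nkx2-2 (3 E-boxes) and Cspg4 (0 matches). Olig1, Sox10, Gpr17 and Mbp had no entry.

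Levels can be compared between genes only per length, and are given here as CPM per kb of exon, averaged over the 6 libraries. Olig1 was the highest at 48.5, followed by Olig2 at 22.5, Cnp at 6.28, Mbp at 5.15, Sox10 at 3.24, Pdgfra at 2.69, Gpr17 at 2.51, Cspg4 at 1.19 and Nkx2-2 at 1.18. Olig1 exceeded Olig2, Olig2 exceeded Cnp, Cnp exceeded Mbp, Mbp exceeded Sox10 and Gpr17 exceeded Cspg4 in 6 of 6 libraries. Sox10 exceeded Pdgfra in 4 of 6 libraries, Pdgfra exceeded Gpr17 in 4 of 6 and Cspg4 exceeded Nkx2-2 in 3 of 6, so these neighbours in the order were not separated beyond their spread. Per kb, Cnp and Mbp lay above the precursor receptor Pdgfra in each library. A gene had the same length in every library, so these counts of libraries do not bear on the choice of length. Before division by length the mean CPM was 43.6 for Mbp, 26.9 for Pdgfra and 22.8 for Cnp. The rank of Cnp therefore rests on the length used. In bulk tissue, fewer cells of a type and less RNA per cell cannot be told apart.

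**Figure D1:**
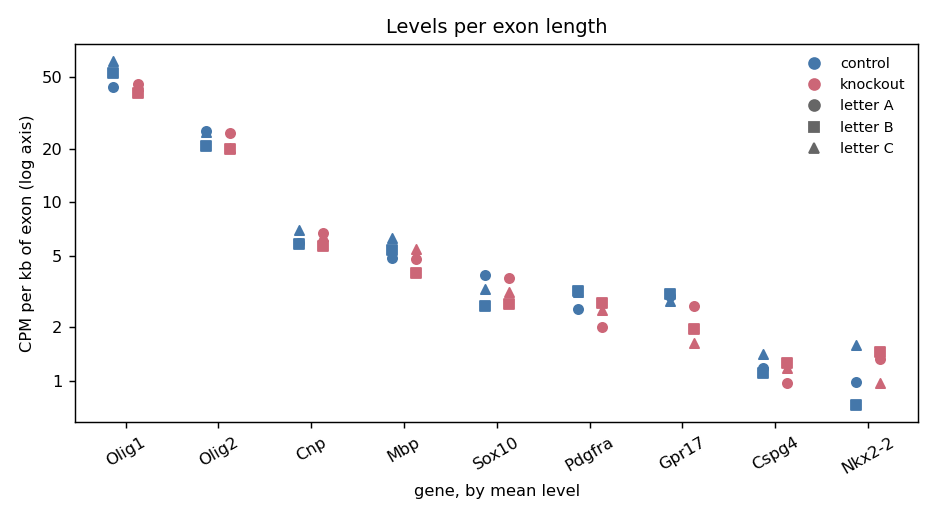
Levels of the 9 members in CPM per kb of exon on a log axis, with genes ordered by their mean over the 6 libraries. Each point is 1 library (blue control, red knockout, shape gives the letter), and Olig1 and Olig2 stand above the other 7 genes in all of them.

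Among the transcription factors, Olig1 had lower values in the knockout in letters B and C and not in letter A. Olig1 and Olig2 encode related basic helix-loop-helix factors and are neighbours on chromosome 16, 41.1 kb apart on the plus strand. Olig1 (ENSMUSG00000046160, 91269772 to 91271933) had 96.2, 114 and 133 CPM in the controls, against 99.6, 89.0 and 96.9 CPM in the knockouts. The knockouts lay close together, the controls were spread, and control A fell within the range of the knockouts. Its log2 change was -0.27 ± 0.12 (SE, edgeR adjusted p = 0.703), and with 1 library left out it ran from -0.38 without control A to -0.15 without control C.

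Olig2 (ENSMUSG00000039830, 91225457 to 91228677) is a factor needed for the lineage to form normally. It had 63.4, 52.3 and 62.4 CPM in the controls, against 61.6, 50.5 and 51.2 CPM in the knockouts. The groups overlapped, and the letters A and B differed little between genotypes. The log2 change of Olig2 was -0.13 ± 0.12 (edgeR adjusted p = 0.878), with a 95% interval from -0.38 to 0.13. Relative to Olig2, Olig1 changed in log2 CPM by 0.091, -0.31 and -0.18 from control to knockout in letters A, B and C, so its ratio to its neighbour differed in direction between letters.

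Sox10, which switches on myelin genes (ENSMUSG00000033006, chromosome 15 from 79154908 to 79165240, minus strand), had the same order of letters in both genotypes. Its levels were 11.9, 8.06 and 9.98 CPM in the controls, against 11.5, 8.25 and 9.56 CPM in the knockouts. Knockout and control of 1 letter were nearer to each other than libraries of 1 genotype were. The log2 change was -0.04 ± 0.20 (edgeR adjusted p = 0.987), and the 95% interval from -0.45 to 0.38 still holds moderate changes in either direction.

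Nkx2-2, a factor of precursors about to differentiate (ENSMUSG00000027434, chromosome 2 from 147177546 to 147194243, minus strand), was the lowest member, with 17 to 45 reads per library. It had 2.82, 2.11 and 4.58 CPM in the controls, against 3.81, 4.17 and 2.81 CPM in the knockouts. Knockouts had the higher value in letters A and B and the lower in C. The 17 reads of control B have an exact 95% Poisson interval of 9.90 to 27.2 reads (counting error only), which does not reach the 45 reads of control C. The log2 change was 0.17 ± 0.31 (edgeR adjusted p = 0.945), and the sign turned when control B was left out (-0.036) and in the paired fit without letter B (-0.14).

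**Figure D2:**
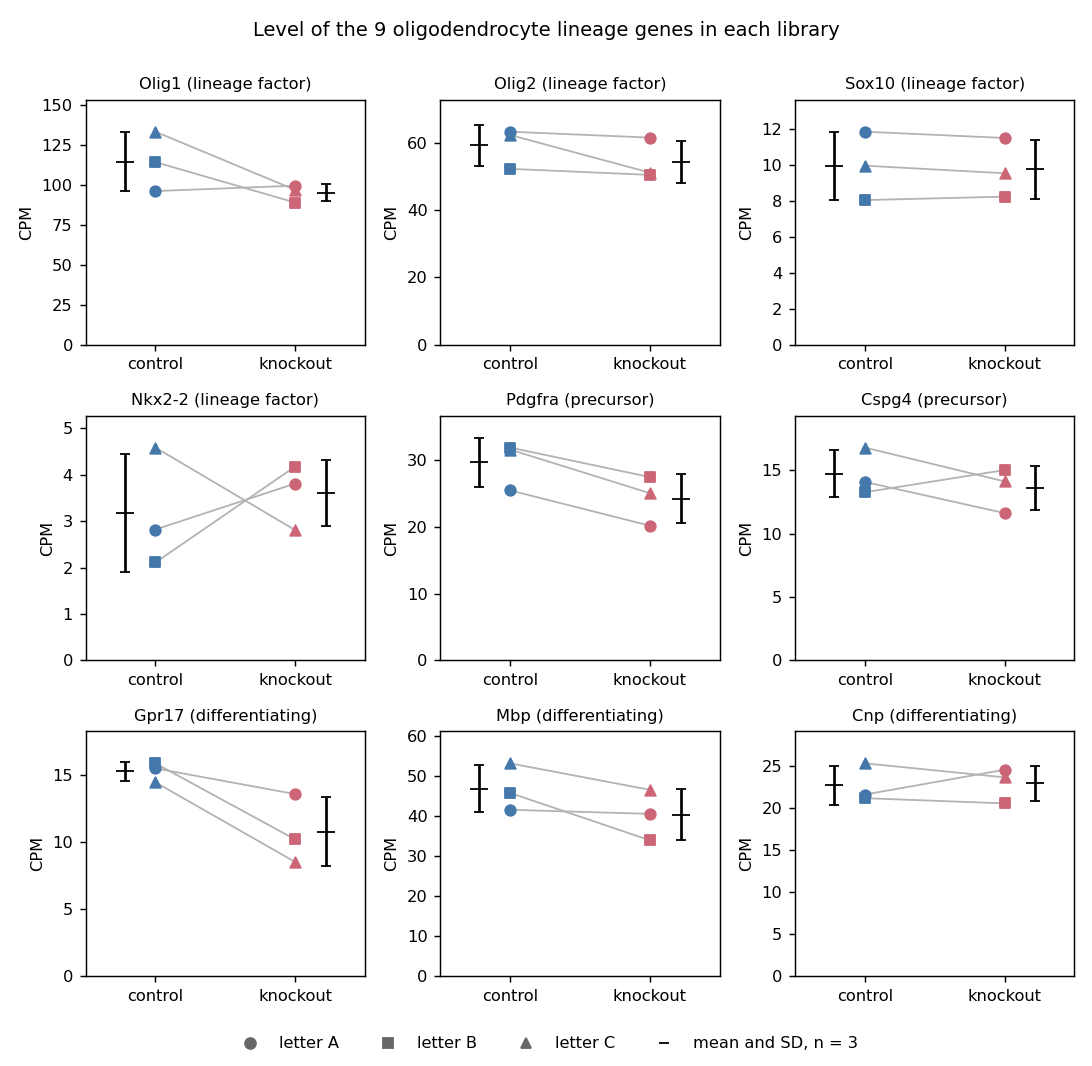
Level of each of the 9 members in CPM, with the axis starting at 0. Points are libraries, grey lines join control and knockout of the same letter, and black bars give the mean and SD of 3 libraries; the groups are apart for Gpr17 and overlap for the other 8 genes.

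Of the precursor surface proteins, Pdgfra, the receptor of the growth factor PDGF-A, had lower values in the knockout in each of the 3 letters. Pdgfra (ENSMUSG00000029231, chromosome 5 from 75152292 to 75198215, plus strand) had 25.5, 31.9 and 31.6 CPM in the controls, against 20.2, 27.5 and 25.0 CPM in the knockouts. The groups overlapped because control A lay below knockout B. Its log2 change was -0.29 ± 0.14 (edgeR adjusted p = 0.731), and the change within the letters was -0.34, -0.22 and -0.33 for A, B and C. Lower values in each of the 3 letters were found for 4 of the 9 members (Olig2, Pdgfra, Gpr17 and Mbp), beside 16.8% of all genes tested.

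Pdgfra is also expressed by fibroblasts of the meninges and vessels. The summed level of 10 fibroblast and meningeal genes was 13.0 and 17.0 CPM in control and knockout A. It was 143 and 142 CPM in letter B and 68.0 and 133 CPM in letter C. Within each genotype letter A was the lowest for both this sum and Pdgfra. In letter C the sum was higher in the knockout, while Pdgfra was lower (31.6 CPM in the control and 25.0 in the knockout). None of the 10 genes was at 0 in all libraries, 8 of the 9 tested had higher fitted values in the knockout (median log2 change 0.44) and 0 were called. The part of fibroblasts in the Pdgfra values was not tested.

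Cspg4 encodes the NG2 proteoglycan of precursor cells (ENSMUSG00000032911, chromosome 9 from 56865033 to 56899870, plus strand). It had 14.1, 13.3 and 16.8 CPM in the controls, against 11.6, 15.0 and 14.1 CPM in the knockouts. Letters A and C were lower in the knockout and B was higher, with a log2 change of -0.12 ± 0.16 (edgeR adjusted p = 0.930). Pericytes, the mural cells of small vessels, also carry NG2. The summed level of 10 mural cell genes was 126, 136 and 124 CPM in the controls, against 164, 142 and 146 CPM in the knockouts. Letter B differed least. Rgs5 alone made up 80.4 CPM of this sum in control A and 109 CPM in knockout A. None of the 10 genes was at 0 in all libraries, and 7 of the 8 tested were higher (median log2 change 0.27, 0 called). Their part in the Cspg4 values was not tested.

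Among genes of differentiating cells, Gpr17 had the largest change of the 9 members and the only groups that did not overlap. Gpr17 encodes a receptor that is present transiently in committed precursors (ENSMUSG00000052229, chromosome 18 from 31942997 to 31949636, minus strand). It had 15.5, 15.9 and 14.5 CPM in the controls, against 13.6, 10.2 and 8.52 CPM in the knockouts. The controls were close together and the knockouts were spread below them. On average this was 15.3 ± 0.732 CPM in controls and 10.8 ± 2.58 CPM in knockouts (SD, n = 3), or 70.5% of the control level.

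The log2 change of Gpr17 was -0.50 ± 0.18 (SE, 95% interval -0.88 to -0.12). In edgeR it missed the threshold (unadjusted p = 0.0124, adjusted p = 0.553), and pairing by letter gave an edgeR adjusted p of 0.125. Over all alternatives its log2 change stayed between -0.70 and -0.37 and its adjusted p between 0.0593 and 0.9995. All 3 knockouts below all 3 controls were found for 1 of the 9 members, beside 6.28% of all genes tested. Gpr17 overlaps the gene Lims2 on the opposite strand, and 0 reads were listed for the strand opposite to Gpr17 in all 6 libraries.

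Mbp, the basic protein that compacts myelin (ENSMUSG00000041607, chromosome 18 from 82475146 to 82585637, plus strand), had lower values in the knockout in each letter, by unequal amounts. It had 41.6, 45.8 and 53.2 CPM in the controls, against 40.5, 33.9 and 46.5 CPM in the knockouts. Within the letters its log2 change was -0.036, -0.43 and -0.19, so letter A hardly differed and letter B differed most. The groups overlapped, and the fitted log2 change was -0.22 ± 0.14 (edgeR adjusted p = 0.802). The Mbp gene also makes Golli transcripts, which start upstream and are found in neurons and other cells. GENCODE M21 lists 16 transcripts with 12 start sites over 110 kb, and gene counts do not separate them. Of 8 genes of cortical projection neurons, 6 had lower fitted values in the knockout (median log2 change -0.13), and their part in the Mbp values was not tested.

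Cnp, an enzyme of the myelin sheath that appears early in the lineage (ENSMUSG00000006782, chromosome 11 from 100574904 to 100591729, plus strand), had overlapping groups with nearly equal means. It had 21.6, 21.2 and 25.4 CPM in the controls, against 24.6, 20.6 and 23.7 CPM in the knockouts. The means were 22.7 ± 2.28 and 23.0 ± 2.10 CPM (SD, n = 3), and the log2 change was 0.01 ± 0.14 (edgeR adjusted p = 0.996). Its 95% interval ran from -0.28 to 0.30, that is from 82.5 to 123% of the control level. Cnp overlaps Dnajc7 on the opposite strand, where 19 to 32 reads per library were counted beside 171 to 249 on the strand of Cnp.

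**Figure D3:**
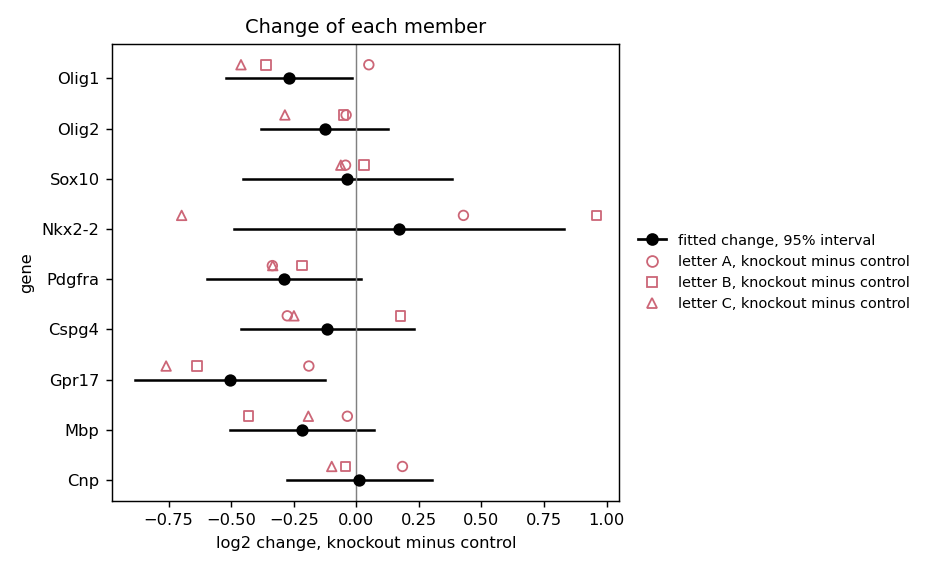
Log2 change of each member from control to knockout. Black points and bars give the fitted change and its 95% interval, and open red symbols give the difference of the 2 libraries of each letter; the intervals of Olig1 and Gpr17 lie below 0 before adjustment over all genes, and those of the other 7 include 0.

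To set differentiating against precursor genes within each library, the mean log2 CPM of Pdgfra and Cspg4 was subtracted from that of Gpr17, Mbp and Cnp. The difference was 0.34, 0.27 and 0.22 in the controls, against 0.64, -0.077 and 0.17 in the knockouts. The controls were close together, and the knockouts lay above them in letter A and below them in letters B and C. Group means were 0.28 ± 0.060 in controls and 0.24 ± 0.36 in knockouts (SD, n = 3), a difference of -0.039. The shift between genotypes was therefore smaller than the spread of the knockouts, and its sign differed between the letters (0.29, -0.35 and -0.058 for A, B and C).

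The mean of each side was lower in the knockout. The precursor side changed by -0.21 on average, with -0.31, -0.020 and -0.29 in letters A, B and C. The differentiating side changed by -0.24, with -0.014, -0.37 and -0.35. Both sides were lower in each letter. The larger drop was on the precursor side in letter A and on the differentiating side in letters B and C. With the 4 transcription factors added to the precursor side the difference between genotypes was -0.15, and without Mbp it was -0.052. The balance between precursor and differentiating genes is described here without a test, and it did not shift in the same direction in all letters.

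Within the differentiating genes, Gpr17 and Cnp differed. In log2 CPM, Gpr17 minus Cnp was -0.48, -0.42 and -0.81 in the controls, against -0.85, -1.01 and -1.47 in the knockouts, lower in each letter and without overlap. Cnp minus Pdgfra was -0.23, -0.59 and -0.32 in the controls, against 0.29, -0.41 and -0.080 in the knockouts, higher in each letter with overlapping groups. These pairs of genes were picked after their values were seen and carry no test.

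**Figure D4:**
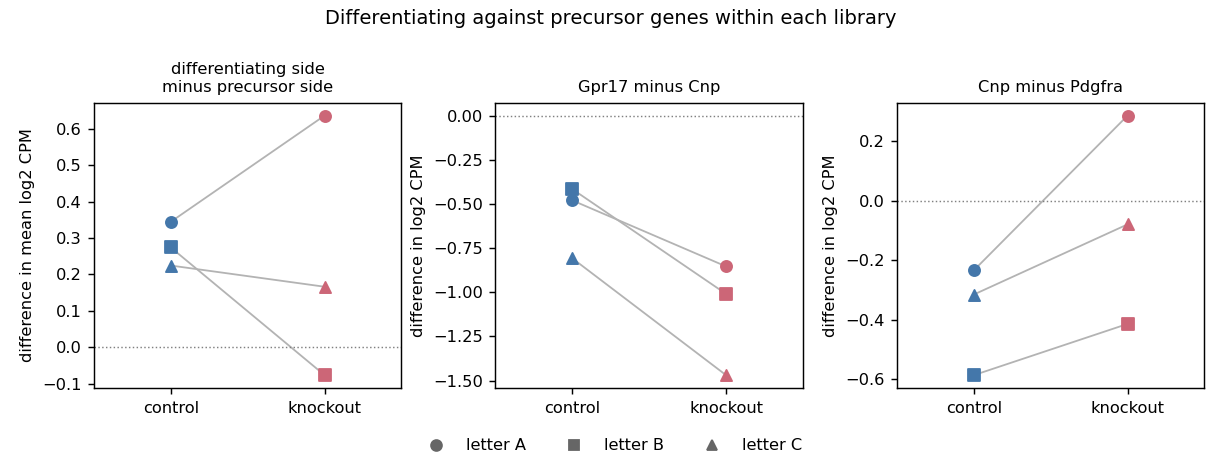
Differences between members within each library on the log2 CPM scale. The left panel gives the mean of Gpr17, Mbp and Cnp minus the mean of Pdgfra and Cspg4, the others give Gpr17 minus Cnp and Cnp minus Pdgfra; grey lines join libraries of the same letter, and the lines of the left panel run in different directions.

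Likeness across the libraries was set out for Pdgfra and Gpr17. Over 9581 other genes with a mean of at least 10 CPM, Pearson's r of log2 CPM with Pdgfra was highest for Cox5a (0.9903), Plat (0.987) and Fat1 (0.985), and with Gpr17 for Tnpo3 (0.986), Dok7 (0.981) and Hacd3 (0.978). These values rest on 6 libraries that share 2 genotypes and 3 letters, and are a description without a test. Beside these, Cspg4 had an r of 0.711 with Pdgfra (rank 1028), Gpr17 had 0.245 with Pdgfra, and Gpr17 with Cnp had -0.0035. Among the members above that level, the nearest to Gpr17 was Olig2 (0.646, rank 1169).

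Other genes of the lineage, 64 in 4 lists, were then described beside the members, and 54 of them passed the filter. Of 14 other precursor genes 13 were tested, 8 were lower and 5 higher, the median log2 change was -0.080, and 0 were called in either fit. The members of this list with the smallest p were Cspg5, a neural proteoglycan (-0.22 ± 0.12, edgeR adjusted p = 0.753), and the transcription factor Sox6 (0.14 ± 0.11, edgeR adjusted p = 0.847). Several genes of the list, among them Ptprz1, Vcan and Bcan, are shared with radial glia or astrocytes.

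Of 14 other genes of committed and newly formed oligodendrocytes 13 were tested, 9 lower and 4 higher, with a median log2 change of -0.066. In the main edgeR fit 0 were called, and with the letter as a block 1, Gpr37, was called lower, beside 0.845% of all genes tested. Gpr37 is an orphan receptor linked to the timing of myelination and is also made by neurons. It had 9.86, 11.7 and 10.7 CPM in the controls, against 5.87, 4.08 and 7.48 CPM in the knockouts. All knockouts lay below all controls, an order found for 6.28% of all genes tested. The log2 change of Gpr37 was -0.89 ± 0.22 (edgeR adjusted p = 0.276 without and 0.0187 with the letter as a block). The call was absent from DESeq2 without and with the block (adjusted p = 0.129 and 0.330) and from the paired edgeR fit without letter B (adjusted p = 0.181). Unpaired edgeR did not make it with RLE scaling (adjusted p = 0.293), with unstranded counts (adjusted p = 0.295) or with any 1 library left out (adjusted p from 0.124 to 0.9995). Unpaired edgeR without the filter on low counts made the call (adjusted p = 0.0214). So did the paired edgeR fits without letters A and C (adjusted p = 0.0145 and 0.00902). The small GTPase Rras2 followed with -0.25 ± 0.11 (edgeR adjusted p = 0.705). At the other end of this list, named after their values were seen, stood the low-count genes Nkx6-2 (0.99 ± 0.46) and Bmp4 (0.76 ± 0.61), with means of 1.06 and 1.57 CPM.

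Several late myelin genes were barely read. Of 18 genes 12 were tested, 8 lower and 4 higher, with a median log2 change of -0.15 and 0 called in either fit. The 6 not tested had at most 14 reads in any library. Among them Mog, a protein of the outer myelin surface, had 0 reads in all 6 libraries, which allows up to 0.289 to 0.364 CPM per library (3 reads, counting error only). The genes with the smallest p were the myelin-associated glycoprotein Mag (1.88 CPM in controls and 1.12 in knockouts, -0.74 ± 0.40, edgeR adjusted p = 0.754) and the tetraspanin Tspan2 (-0.33 ± 0.18, edgeR adjusted p = 0.766). Cldn11, a tight junction protein of myelin that is also found in the meninges, had 0.79 ± 1.13 and was named after its values were seen.

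Signals and inhibitors of the lineage had 16 of 18 genes tested, 11 higher and 5 lower. The median log2 change was 0.024 and 0 were called in either fit. They include Pdgfa, the ligand of Pdgfra, which had 88.2 CPM in controls and 78.2 in knockouts (-0.17 ± 0.11). The genes with the smallest p were the growth factor receptor Fgfr3 (-0.27 ± 0.12, edgeR adjusted p = 0.708) and Gli1, a target and effector of hedgehog signalling (0.35 ± 0.19, edgeR adjusted p = 0.766). The change of Gli1 was 1.05 with unstranded counts, 0.54 without knockout B and 0.22 without knockout C.

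**Figure D5:**
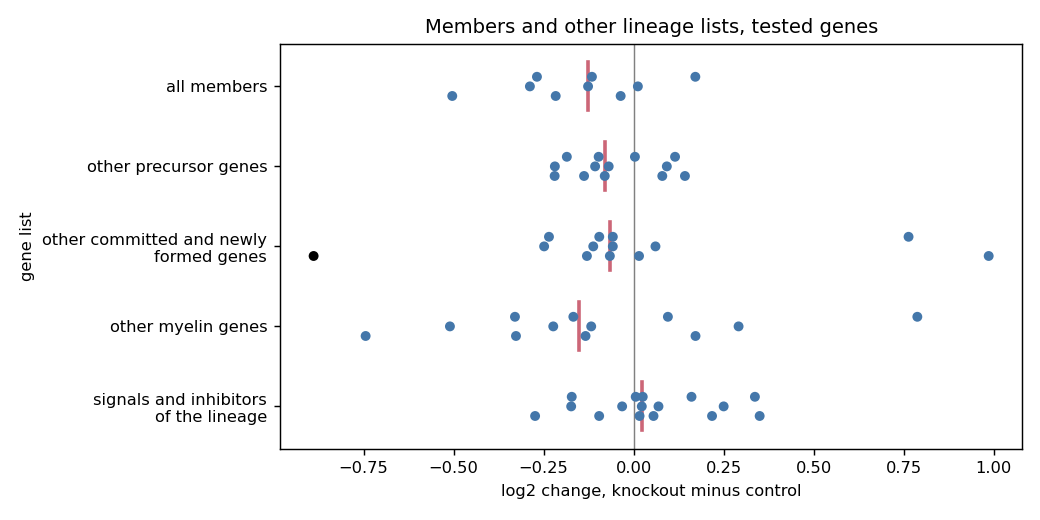
Fitted log2 change of each tested gene among the members and in 4 other lists of the lineage. Points are genes (black where called with the letter as a block, which is Gpr37 alone), red bars are list medians from -0.15 to 0.024, and the grey line is the median of all genes tested.

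Of the genes of other cells in the cortex 0 were called in the main edgeR fit. None of the 8 lists had a gene at 0 in all libraries. Genes of projection neurons summed to 3281 to 3621 CPM in controls and 3151 to 3535 in knockouts, and with the block Slc17a7, a vesicular glutamate transporter (-0.48 ± 0.12), was called lower (edgeR adjusted p = 0.0160). DESeq2 with the block (adjusted p = 0.182) and the paired edgeR fit without letter B (adjusted p = 0.170) did not call it. The striatal and ventral forebrain list, fixed because Olig1 and Olig2 also mark ventral progenitors, summed to 588 to 693 CPM in controls and 620 to 692 in knockouts. Its median log2 change was 0.067, and Lhx8 had 0.56 ± 0.21.

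Astrocyte genes summed to 807 to 904 CPM in controls and 801 to 878 in knockouts (median log2 change -0.080, Aqp4 at -0.19 ± 0.15). Radial glia and intermediate progenitor genes summed to 772 to 821 and 728 to 983 CPM, with 8 of 9 tested genes higher (median 0.24, Eomes at 0.74 ± 0.24). Microglial genes summed to 153 to 187 and 176 to 221 CPM, with 10 of 12 higher (median 0.18, Csf1r at 0.52 ± 0.16). Genes of dividing cells, which would include precursors in cycle, summed to 163 to 196 and 169 to 179 CPM (median -0.012, Aurkb at 0.63 ± 0.33). The most changed genes of the mural and fibroblast lists by p were Rgs5 (0.24 ± 0.11) and Ogn (1.56 ± 1.11). The part of these cells in the members' values was not tested.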

How the data were processed

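The authors deposited 1 table per library of raw read counts per gene with unstranded and 2 stranded columns. The submitters' processing notes name the aligner STAR 2.5.4, along with GRCm38 and mm10 as genome builds. Which annotation release and read filters were used is not given in the sources used here. Libraries came from a Lexogen SENSE kit, per the labels' protocols, and of the 2 stranded columns the one with 18.6 times as many counts was used. The 4 summary lines per table were left out. The multi-mapping line was 0. Symbols and exon lengths came from GENCODE M21 (52403 of 52550 identifiers matched).

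Counts were filtered with filterByExpr, scaled by TMM and compared across all genes with edgeR 4.0.16 in R 4.3.3 (robust quasi-likelihood F-test, two-sided, Benjamini-Hochberg adjustment). The SE is the log2 change divided by the square root of F. CPM uses TMM-scaled library sizes, and log2 CPM adds 0.5 to counts. Alternatives were the letter as a block, DESeq2 1.42.0, RLE scaling, no filter, unstranded counts and leaving out each library. Fits were also run on simulated data with planted changes and no letter effect, which cannot show how they handle differences between letters. Deviations from group means correlated at 0.438, 0.364 and 0.218 between genotypes for letters A, B and C, and at -0.0315 at most between different letters. Such deviations cancel out within a genotype, so positive values for the same letter make the others negative, and the negative values are not separate evidence. The main fit left the letter out. Where letters were treated as pairs, this was on the data's evidence alone, since the labels do not say what a letter marks. Members and lists were chosen with earlier results of these data known. All members were named, with the 2 genes of smallest p of each lineage list, 1 of each list of other cells, and any called gene, except that some results are not reported here.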

Additional observations from a re-analysis of the deposited data

How the results depend on the processing

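No member was called in the 15 alternatives, 9 of which leave libraries out (DESeq2 without the block gave no adjusted p for Nkx2-2). The number of called genes, 5 in the main analysis, was 126 with the replicate block, 27 with DESeq2, 23 with DESeq2 and the block, and 71 without the filter on low counts. It ran from 1 without knockout B to 9 without knockout C. In the paired fit it was 228, 161 and 77 without letters A, B and C. These 3 and DESeq2 with the block were alternatives chosen after seeing the data. The median change of the members, -0.13, was negative in each of these alternatives, from -0.21 without control B to -0.048 in the paired fit without letter C. The sign of Olig1, Olig2, Pdgfra, Cspg4, Gpr17 and Mbp also held throughout. The difference between differentiating and precursor genes ran from -0.24 without knockout A to 0.12 without knockout B, so its sign rests on single libraries. Among the other lineage lists, the median of precursor genes was -0.014 and that of committed genes 0.020 in the paired fit without letter C. The median of myelin genes was 0.096 without the filter, where more low-count genes enter, ran from -0.33 without knockout B to -0.080 without control A when single libraries were left out, and was -0.064 in the paired fit without letter A. The median of signals and inhibitors was -0.050 in the paired fit without letter A and 0.096 in that without letter C, and ran from -0.071 without control A to 0.061 without control C when single libraries were left out. The causes were not tested. Nkx2-2 had 17 to 45 reads per library, and the 6 untested myelin genes at most 14, which limits their precision.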
